A study of Mus musculus with 75 samples.

Results

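Commd3 and Bmi1 are 2 neighbouring genes on mouse chromosome 2, and their surroundings were followed here as cells left mitosis and entered G1. The region was set as chr2:17600000-19600000 of build mm9, a window of 2000 kb that holds Commd3 near 18594000 and Bmi1 near 18600000, and every CTCF peak, Rad21 peak, domain, chromatin loop and contact stripe listed in it was taken. That gave 310 listed features out of 319958 on all chromosomes, a feature being counted once in each list that holds it. The gene positions are approximate, and the contact lists work in bins of 10 kb, so contacts of Commd3 cannot be told apart from contacts of Bmi1. No cell type is named from these lists, since they hold no expression values with which to check erythroid markers.

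The cells were G1E-ER4, an established immature erythroid line of strain 129 and a subline of the GATA1-null proerythroblast line G1E. The labels name no induction of these cells. They were arrested with nocodazole (200 ng/ml for 7 to 8.5 h) and sorted in pro-metaphase (0 min), ana/telophase (25 min), early G1 (60 min), mid G1 (120 min) or late G1 (240 min) after release. ChIP-seq, which maps where a protein sits on DNA, covered CTCF (3 samples in pro-metaphase, 2 at each later stage) and Rad21 (2 samples per stage), both also in asynchronous cells (2 samples each). In situ Hi-C, which maps contacts between DNA segments, had 2 samples per stage. Of the 75 samples, 20 were Capture-C, which reads the contacts of chosen sites, and 8 of these were of a line labelled commd3_mutant, so the locus was one the study itself singled out. Capture-C, RNA polymerase II and input samples were not analysed here.

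Each stage has 1 pooled list per measurement, so there was no spread between replicates and no test between stages could be run. Read depth is unknown from the lists, and a stage with fewer reads could list fewer features. A feature that is not listed is one that did not pass the authors' calling, not one shown to be absent. Intervals in parentheses are exact 95% binomial intervals that cover counting error only.

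Commd3 encodes a COMM-domain protein of a complex that sorts membrane proteins at endosomes. Bmi1 encodes a subunit of a Polycomb repressive complex and is known for repressing the Cdkn2a locus and for the self-renewal of stem cells. CTCF is a sequence-specific DNA-binding protein, and Rad21 belongs to the cohesin ring, which extrudes DNA loops and is held up at CTCF sites. Loops and domains with CTCF and cohesin at their ends are the best-known kind, while contacts between promoters and enhancers can form without CTCF at either end. Mitotic chromosomes lose most such structure, and it is rebuilt after division.

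In RefSeq's gene order on GRCm38.p6, Dnajc1 and Mllt10 precede Commd3, and Gm46725, Spag6 and Pip4k2a follow Bmi1, with both genes on the plus strand and their starts 4.58 kb apart. The 250 bases before each start are shown because contacts described below end in the bins of these genes, where no CTCF peak was listed. They are RefSeq sequences on GRCm38.p6, whose positions are not those of the mm9 lists. Commd3 is chr2:18672185-18672434 and Bmi1 is chr2:18676768-18677017, both on the plus strand. Capitals mark CACGTG, the E-box core, and GGGCGG or its reverse complement CCGCCC, the GC box.
Commd3: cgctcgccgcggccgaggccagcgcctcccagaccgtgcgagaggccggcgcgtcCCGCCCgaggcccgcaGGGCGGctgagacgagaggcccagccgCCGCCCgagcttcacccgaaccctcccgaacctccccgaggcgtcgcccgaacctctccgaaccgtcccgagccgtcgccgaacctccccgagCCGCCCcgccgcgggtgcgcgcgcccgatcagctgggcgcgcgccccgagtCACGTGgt
Bmi1: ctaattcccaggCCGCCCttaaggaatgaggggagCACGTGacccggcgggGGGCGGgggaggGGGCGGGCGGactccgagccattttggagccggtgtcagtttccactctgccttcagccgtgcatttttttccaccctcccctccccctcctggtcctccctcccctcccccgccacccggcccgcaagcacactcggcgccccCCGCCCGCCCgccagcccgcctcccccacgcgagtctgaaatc
Both promoters are rich in G and C, with 78.8% for Commd3 and 70.4% for Bmi1, against a median of 52.4% over 32851 promoters of the same length. Commd3 has 45 CpG dinucleotides and Bmi1 has 21, where the median promoter has 6. Searching both strands, with overlapping matches counted, found CACGTG 1 time in each promoter, a motif held by 6.02% of all promoters. GGGCGG was found 4 times before Commd3 and 6 times before Bmi1, and 32.7% of all promoters hold at least 1 match. Promoters equally rich in G and C were not counted apart, so these counts do not tell whether the motif is unusually frequent here. No CTCF motif was searched. These matches describe letters only, and no factor's binding follows from them.

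The pro-metaphase CTCF peaks lay in the outer parts of the window, and peaks nearer the genes were listed from ana/telophase on. The window held 6 CTCF peaks in pro-metaphase, then 23, 28, 33 and 27 from ana/telophase to late G1, and 28 in asynchronous cells. Merged over the 6 lists, these peaks make 34 sites, of which 6 were in every list and 14 in every list but the pro-metaphase one. Ana/telophase was the first stage to list 17 of the sites, early G1 the first to list 7 and mid G1 the first to list 4, and late G1 added 0. On all chromosomes the CTCF lists held 11604 peaks in pro-metaphase and 33127 in ana/telophase. Merged sites were not counted in these ways on all chromosomes, so the site counts are no measure of timing at this locus. Among the 28 asynchronous peaks, 6 were found in pro-metaphase, 21.4% (8.30 to 41.0) against 34.6% on all chromosomes. In ana/telophase it was 75.0% (55.1 to 89.3) against 86.7%. The 3 G1 stages, in order, had 96.4% against 93.5%, 96.4% against 95.1% and 89.3% against 91.6%. Every one of these genome-wide shares lay inside the interval of the window's share, so with 28 peaks no difference in timing from the other chromosomes was detectable.

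The 6 pro-metaphase CTCF peaks all lay far from the genes. On the Commd3 side were chr2:17754418-17754667, with a deposited fold enrichment of 8.75, and chr2:17949028-17949331, with 22.5. Beyond Bmi1 were chr2:19160478-19160716 with 9.18, chr2:19197928-19198252 with 33.7, chr2:19336706-19336972 with 19.7 and chr2:19450468-19450714 with 13.7. The strongest of them, with 33.7, ranked 1175 of 11604 in the pro-metaphase list, and the weakest, with 8.75, ranked 9510. Of the 18 CTCF sites between 18100000 and 19100000, the central part of the window, 0 were listed in pro-metaphase. Of the 15 asynchronous CTCF peaks there, 0% were found in pro-metaphase, against 34.6% on all chromosomes. Other stretches of that length were not examined in this way.

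The 5 strongest asynchronous CTCF peaks of the window had fold enrichments of 40.4 to 63.2, and 3 of them were among the pro-metaphase sites. The strongest, chr2:17948941-17949421, ranked 238 of 33166 and was listed at every stage, with fold enrichments of 22.5, 57.7, 63.8, 58.3 and 56.2 from pro-metaphase to late G1. Such values are set within each list and are not a measure of change. The other two, chr2:18794359-18794757 with 41.0 and chr2:19266307-19266666 with 40.4, were listed from ana/telophase on.

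**Figure D1:**
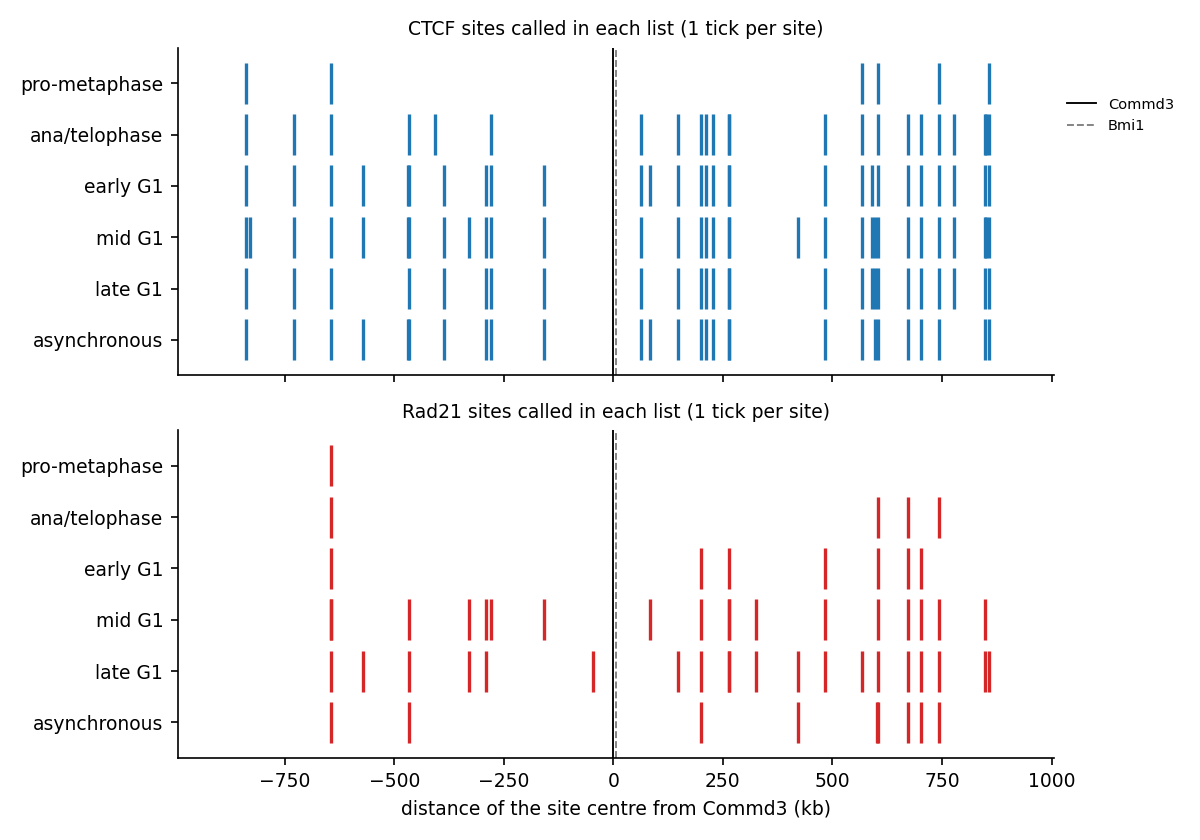
CTCF sites (upper plot) and Rad21 sites (lower plot) listed in each of the 6 lists, placed by their distance in kb from Commd3 (solid line; Bmi1 dashed), with 1 tick per site. The pro-metaphase row has 6 CTCF ticks and 1 Rad21 tick, all far from the genes, and no row has a CTCF tick at the genes.

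At every stage fewer Rad21 than CTCF peaks were listed in the window, as on all chromosomes. Rad21 had 1 peak in the window in pro-metaphase, then 4, 7, 18 and 20 from ana/telophase to late G1, and 9 in asynchronous cells, making 26 sites. Of the CTCF peaks, 1 of 6 (16.7%) carried a Rad21 peak in pro-metaphase, against 3.15% on all chromosomes, and 4 of 23 (17.4% against 21.0%) did in ana/telophase. In the G1 stages 7 of 28 (25.0% against 25.3%), 14 of 33 (42.4% against 42.0%) and 15 of 27 (55.6% against 53.7%) did, and in asynchronous cells 7 of 28 (25.0% against 39.4%). Mid G1 was the first to list 10 of the sites and late G1 the first to list 7, and 12 sites were in 1 list only. On all chromosomes the Rad21 lists held 596, 7995, 8694, 15762 and 18958 peaks from pro-metaphase to late G1. Merged Rad21 sites were not counted in these ways on all chromosomes, so the site counts are no measure of timing at this locus.

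The single pro-metaphase Rad21 peak, chr2:17949262-17949311, was 50 bp wide with a fold enrichment of 4.93 and a −log10 q of 1.16, and it was lost when 5 was set as the minimum for either value. It lay on the strongest CTCF site of the window. That site was the sole Rad21 site in every list, with fold enrichments of 21.7, 28.8, 39.7 and 39.4 from ana/telophase to late G1 and 28.1 in asynchronous cells, and it ranked 12 of 15762 in mid G1 and 36 of 18958 in late G1. In ana/telophase 3 more Rad21 peaks were listed, at the CTCF sites that begin at 19197871, 19266286 and 19336094, the nearest of them 598 kb beyond Bmi1.

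Of the 20 late-G1 Rad21 peaks, 5.00% were found in pro-metaphase against 2.47% on all chromosomes. The next 3 stages, in order, had 20.0% (5.73 to 43.7) against 36.3%, 35.0% (15.4 to 59.2) against 45.1% and 65.0% (40.8 to 84.6) against 77.6%. Each genome-wide value lay inside the window's interval. In asynchronous cells 40.0% were found (19.1 to 63.9) against 68.4%, and here the genome-wide value lay above the interval. The 5 strongest late-G1 peaks, with fold enrichments of 13.3 to 39.4, were all listed in asynchronous cells too.

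Rad21 peaks sat on CTCF peaks of the same stage in 1 of 1, 4 of 4 and 7 of 7 cases up to early G1, where the shares on all chromosomes were 62.4%, 87.3% and 98.5%. In mid G1 14 of 18 did (77.8%, 52.4 to 93.6, against 96.2%), in late G1 15 of 20 (75.0%, 50.9 to 91.3, against 95.0%), and in asynchronous cells 7 of 9 (77.8%, 40.0 to 97.2, against 96.3%). In mid and late G1 the genome-wide value lay above the window's interval, although neighbouring peaks are not independent draws. The 4 mid-G1 Rad21 peaks without CTCF had fold enrichments of only 3.79 to 4.94, and among the 14 mid-G1 Rad21 peaks with a −log10 q of 5 or more the share on CTCF was 92.9%. The same minimum gave 78.9% of 19 peaks in late G1. The 5 late-G1 Rad21 peaks without a late-G1 CTCF peak lay in the sites that begin at 18022647, 18265198, 18547667, 18919794 and 19015663, with fold enrichments of 5.51, 3.85, 4.79, 3.41 and 6.51. At 3 of them, those at 18022647, 18265198 and 19015663, a CTCF peak was listed at another stage.

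The 2 genes themselves lay in a stretch without CTCF. From 18435358 to 18656334, over 221 kb, none of the 6 CTCF lists has a peak. Of 41653 gaps between neighbouring CTCF sites on all chromosomes, 5.28% were at least as long, and the median gap was 20.5 kb. These values count each gap once, whereas a given position falls more readily in a long gap than in a short one. They therefore do not tell how unusual the position of the genes is. The stretch was 1211 kb long in the pro-metaphase list alone, 341 kb in ana/telophase and 221 kb in each of the 3 G1 stages and in asynchronous cells.

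The nearest CTCF site before Commd3, 159 kb away, was listed from early G1 on. Its fold enrichments in the G1 lists were 5.87, 10.6 and 10.8, and it was 9.31 in asynchronous cells. The nearest one beyond Bmi1 began at 18656335 and was listed from ana/telophase on, with fold enrichments of 8.32, 12.5, 15.9, 12.9 and 8.50. It lay 56.4 kb from Bmi1 in ana/telophase. Another site, from 18677903, was listed in early G1 (9.24) and in asynchronous cells (5.66). These 2 are the only CTCF sites within 100 kb of either gene.

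The Rad21-free stretch ran from 18547834 to 18677736, 130 kb, and 21.1% of the gaps between Rad21 sites were at least as long. That share too counts each gap once, whatever its length. Within 100 kb of the genes Rad21 had 2 sites, each in 1 list. The late-G1 peak chr2:18547667-18547833, 46.2 kb before Commd3, had a fold enrichment of 4.79, ranked 16782 of 18958 and had no CTCF peak in any list. The mid-G1 peak chr2:18677737-18678093, 83.7 kb beyond Commd3, had a fold enrichment of 4.94.

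A domain boundary stood at the genes at every stage from pro-metaphase to late G1. A domain is a stretch whose segments contact each other more than those outside it, and domains may be nested. Domains touching the window numbered 2 in pro-metaphase, 10 in ana/telophase and 12, 14 and 11 in the G1 stages. The lists held 2509, 5531, 9210, 10286 and 10899 domains on all chromosomes, in the same order. The pro-metaphase domains were chr2:17960001-18300000 and chr2:18300001-18590000, and the second ended 4 kb before the Commd3 position. Near the genes, pro-metaphase had its boundary at 18590000 and ana/telophase at 18580000 and 18600000. Early G1 had 18590000 and 18600000, mid G1 had 18590000 and late G1 had 18600000.

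That domain of about 290 kb, which ends at the genes, was listed with both ends within 20 kb at all 5 stages: chr2:18300001-18590000 in pro-metaphase, chr2:18310001-18600000 in ana/telophase, early G1 and late G1, and chr2:18310001-18590000 in mid G1. In the form that ends at 18600000 it includes both gene positions, and in the form that ends at 18590000 it stops short of them. Ana/telophase listed a second domain, chr2:18320001-18580000 of 260 kb, that matched the same domain at every other stage. Of the 11 late-G1 domains touching the window it was the only one with a match in all 4 earlier lists, and 2.98% of 10899 late-G1 domains on all chromosomes had one. Of the 11 late-G1 boundaries in the window, 2 (18.2%) were found in all 4 earlier lists, against 13.6%. These were the 2 ends of this domain.

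The boundary at the genes had no CTCF and no Rad21 peak of any list within 20 kb. Its other end, near 18310000, had CTCF sites from 18303325 and from 18314820 beside it, though neither in pro-metaphase. Boundaries with no CTCF peak of any list within 20 kb were common: they made up 36.6% of pro-metaphase boundaries on all chromosomes, and 33.6%, 37.1%, 37.3% and 39.2% at the 4 later stages in order. Of 13553 late-G1 boundaries, 1839 were found in all 4 earlier lists. Among these, 364 had neither CTCF nor Rad21 within 20 kb (2.69% of all 13553), and the boundary at the genes was 1 of them. It was the boundary of a nested domain after pro-metaphase: counting only domains in no larger one, it was listed in pro-metaphase alone, 1 stage in place of 5.

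On the Bmi1 side, domains that begin at the genes were first listed in early G1. Domains first listed in G1 were not counted on all chromosomes, so this order is no measure of timing at this locus. In ana/telophase the genes lay in a large domain of 1380 kb, chr2:17920001-19300000, which had matches at all later stages, and the first other domain to begin beyond Bmi1 was chr2:19290001-19460000. In early G1 a domain of 190 kb, chr2:18590001-18780000, began at the genes, and in mid G1 domains of 160 kb and 180 kb did, chr2:18590001-18750000 and chr2:18590001-18770000. Late G1 listed none there, and its nearest domains began at 18740001. Domains that hold the Commd3 position numbered 0 in pro-metaphase, 2 in ana/telophase and 6, 4 and 4 in the G1 stages, from 160 kb to 1970 kb long, the longest being chr2:17350001-19320000 in late G1. A boundary at 19210000 was listed in early, mid and late G1 and in neither earlier stage. On all chromosomes 44.2% of late-G1 boundaries were found in ana/telophase.

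**Figure D2:**
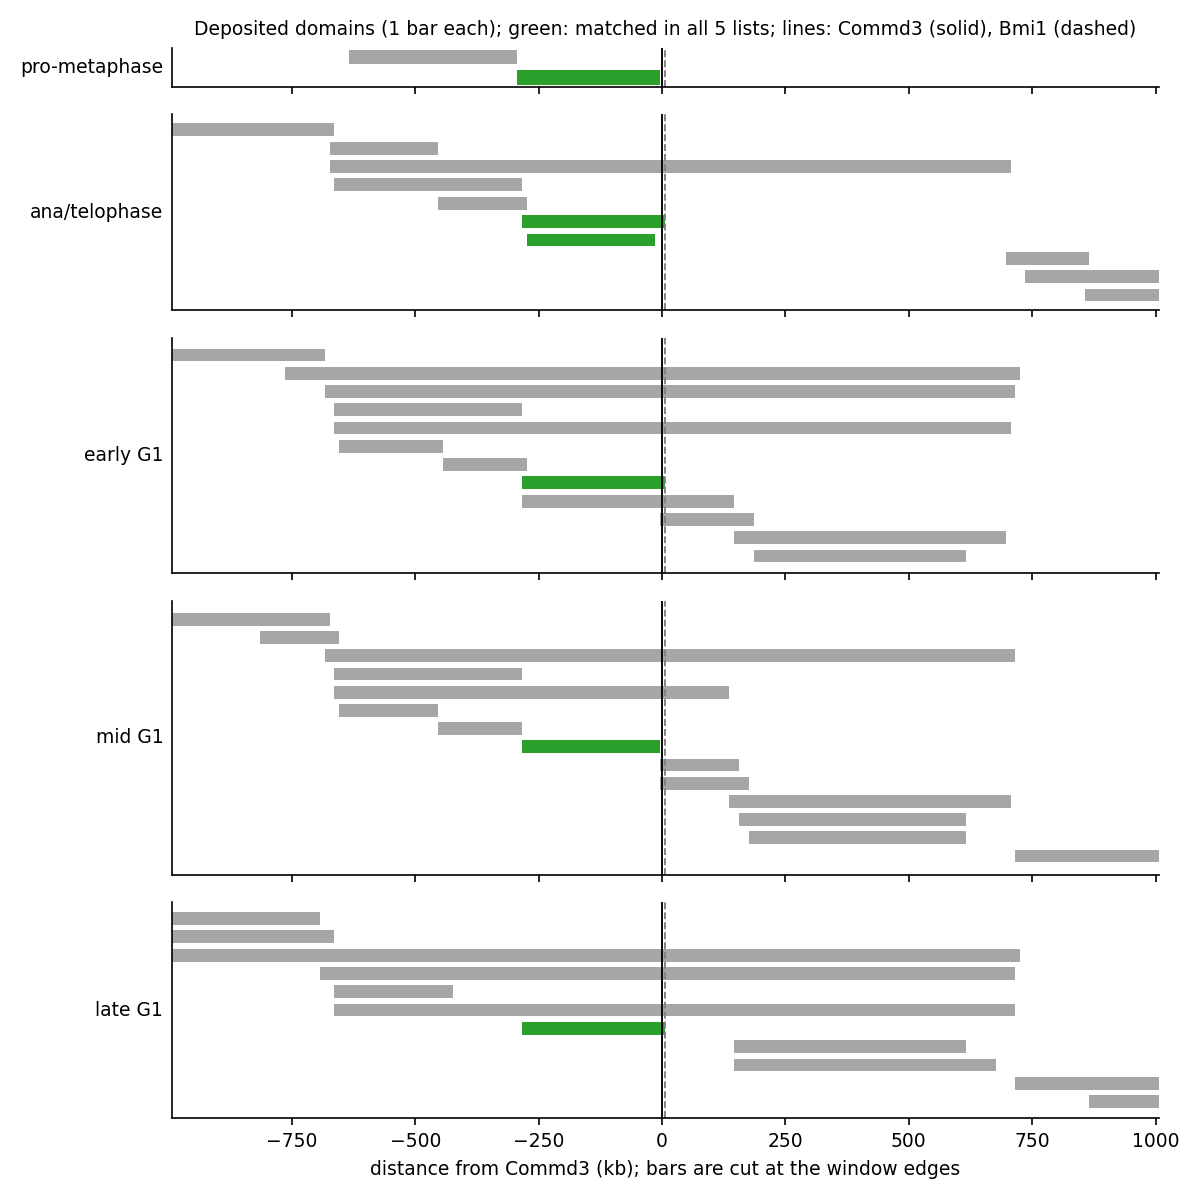
Domains of the window at each stage as bars, by distance in kb from Commd3 (solid line; Bmi1 dashed), cut at the window's edges. The green bars, matched in all 5 lists, are the domain of about 290 kb that ends at the genes and, in ana/telophase, also one of 260 kb that ends before them, and the other bars lack a match in at least 1 list.

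Late-G1 boundaries of the window were found in 18.2% of cases in pro-metaphase (2.28 to 51.8, against 18.8% on all chromosomes) and in 72.7% in ana/telophase (39.0 to 94.0, against 44.2%). Early G1 had 90.9% (58.7 to 99.8, against 68.6%) and mid G1 72.7% (39.0 to 94.0, against 74.6%). With 11 boundaries these intervals are wide, and each holds the genome-wide value.

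The genes anchored a loop in ana/telophase that was not matched within 20 kb later, and most of their few listed G1 loops ran upstream. A stripe from the genes ran beyond Bmi1 at every G1 stage, so contacts on that side were still listed. Loops are pairs of segments, called anchors, that contact each other more than their distance predicts. Loops with both anchors in the window numbered 0 in pro-metaphase, 2 in ana/telophase and 13, 12 and 11 in the G1 stages. The lists held 84, 908, 7029, 9714 and 11340 loops on all chromosomes, in the same order. In pro-metaphase only 4.28% of windows of this length along the chromosomes held any loop. The ana/telophase loop joined the gene anchor chr2:18590001-18600000 to chr2:18850001-18880000, 280 kb apart. It had an observed contact of 20.8 against an expected 2.87, a ratio of 7.26, and a deposited p-value of 1.62e-12. In its list it ranked 54 of 908, with 94.1% of the loops lower.

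No loop of early, mid or late G1 had both anchors within 20 kb of those of this loop. On all chromosomes, 93 of 908 ana/telophase loops (10.2%) were likewise found at no later stage. In 43.3% of ana/telophase loops an anchor held no CTCF peak of any list. Of the 93 unmatched loops, 37 had such an anchor (4.07% of all 908 loops), and this loop was 1 of the 37. At 40 kb, the distance at which 7.16% of ana/telophase loops were still unmatched, it was matched by an early-G1 loop, from the same gene anchor to chr2:18910001-18940000, 320 kb away, with a ratio of 3.93. A loop that is not listed has no contact value here, so the size of any fall after ana/telophase cannot be given.

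The far anchor of the ana/telophase loop held CTCF sites from 18857222 to 18857515 and from 18858143 to 18858440. In ana/telophase their CTCF peaks had fold enrichments of 16.8 and 15.9, and both were listed at every later stage. Rad21 was listed at the first in all 3 G1 stages and at the second in mid and late G1, and at neither in ana/telophase or in asynchronous cells. So at the stage at which the loop was listed, CTCF lay at 1 of its anchors and Rad21 at none. On all chromosomes 21.9% of ana/telophase loops had CTCF and Rad21 peaks of that stage at both anchors.

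From early G1 most listed loops of the genes ran to the other side, towards Commd3's upstream neighbours. The early-G1 loop matched at 40 kb still ran beyond Bmi1, as did a stripe described below. The loop from chr2:18300001-18320000 to chr2:18590001-18610000, 280 kb, had a ratio of 4.47 in early G1. It was matched in mid G1, with anchors chr2:18310001-18320000 and chr2:18580001-18610000 and a ratio of 4.05, and in late G1, with the early-G1 anchors and a ratio of 4.68. In those lists 74.6%, 60.9% and 77.0% of loops had a lower ratio. These 2 anchors are the ends of the domain listed at all 5 stages, so from early G1 on those ends were also listed as a loop.

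A longer loop, from chr2:17970001-17990000 to chr2:18590001-18620000, 610 kb, was listed in early G1 alone, with a ratio of 6.82 that 93.1% of the early-G1 loops did not reach. Neither of its anchors held a CTCF or Rad21 peak of any list. The gene anchors of all 6 loops, across stages, held none either.

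The loops without a gene anchor lay on both sides of the genes. Upstream of Commd3, early G1 had chr2:17940001-17960000 to chr2:18020001-18040000 (2.56) and chr2:18330001-18350000 to chr2:18530001-18550000 (3.73). Mid G1 had chr2:17940001-17960000 to chr2:18110001-18130000 (3.34) and chr2:17980001-18010000 to chr2:18070001-18080000 (2.49). Late G1 had 3 loops from chr2:17940001-17960000, to chr2:18010001-18040000 (2.01), chr2:18070001-18090000 (2.29) and chr2:18110001-18130000 (3.06). These upstream loops had ratios of 2.01 to 3.73, and the anchor at 17940001, shared by 5 of the 7, holds the strongest CTCF site of the window.

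Most of the others lay beyond Bmi1, with anchors from 18750001 to 19280000. The early-G1 loop with the highest ratio, 6.89, joined chr2:18780001-18820000 to chr2:19180001-19210000 over 400 kb, and it was matched in mid G1 (5.23) and late G1 (5.07), where it was again the highest of the window. CTCF and Rad21 peaks of the stage lay at both of its anchors in all 3 lists. Such anchors on both sides were found for 2 of 13 window loops in early G1 (15.4%, against 32.8% on all chromosomes), 5 of 12 in mid G1 (41.7% against 49.6%) and 3 of 11 in late G1 (27.3% against 51.3%). The other ana/telophase loop, chr2:18850001-18880000 to chr2:18910001-18930000, over 40 kb, shared its first anchor with the far end of the gene loop. It had a ratio of 2.01 and was matched at every later stage. The longest loop of the window, 880 kb, ran over the genes in mid G1 from chr2:18300001-18320000 to chr2:19190001-19210000, with a ratio of 4.28.

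Of the 11 late-G1 loops, none was found in pro-metaphase (0.794% on all chromosomes). The next 3 stages, in order, had 18.2% (2.28 to 51.8, against 8.19%), 63.6% (30.8 to 89.1, against 64.1%) and 81.8% (48.2 to 97.7, against 81.1%). The 2 late-G1 loops found in ana/telophase matched the same ana/telophase loop, chr2:18850001-18880000 to chr2:18910001-18930000, so they are not independent. Loops with an anchor free of CTCF in every list numbered 8 of 13 in early G1 (61.5%, 31.6 to 86.1, against 30.9%), 5 of 12 in mid G1 (41.7%, 15.2 to 72.3, against 30.2%) and 6 of 11 in late G1 (54.5%, 23.4 to 83.3, against 33.6%). Early G1 was the stage whose genome-wide value lay below the window's interval, and 3 of those 8 loops share the gene anchor.

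**Figure D3:**
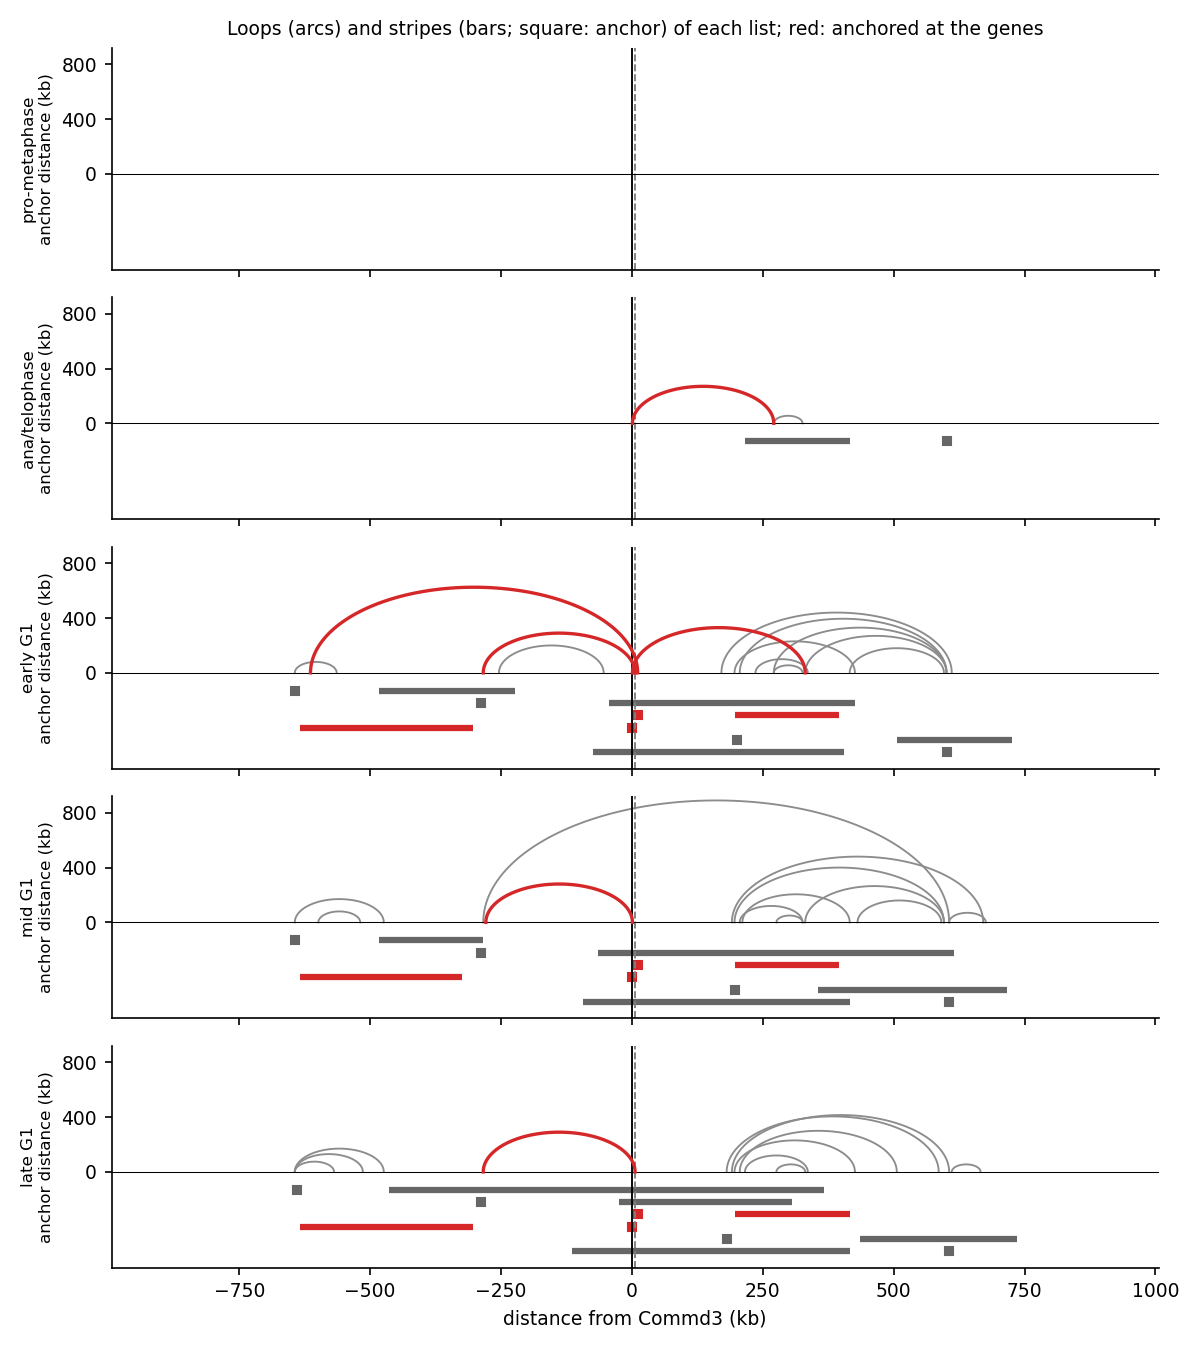
Loops as arcs, whose height is the distance in kb between anchor centres, and stripes as bars with a square at the anchor, by stage and by distance in kb from Commd3 (solid line; Bmi1 dashed). Red marks features anchored at the genes: 1 loop towards the right in ana/telophase, 3 loops in early G1 and 1 towards the left in mid and late G1, beside 2 stripes at each G1 stage.

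Stripes of contact left the genes in both directions at every G1 stage. A stripe joins 1 anchor to a continuous stretch, its body, and here the strength is the deposited ratio of observed to expected contact summed over the body. No stripe was anchored in the window in pro-metaphase (0), 1 was in ana/telophase, and 6 were at each G1 stage. The lists held 39, 307, 1753, 1754 and 1745 stripes on all chromosomes, from pro-metaphase to late G1. In pro-metaphase only 2.06% of windows of this length along the chromosomes held any stripe anchor. Of 1308 windows of the same length laid end to end along the chromosomes, 1.53% held more stripe anchors in early G1. In mid and late G1 1.53% and 1.38% did, and the median was 1 at each G1 stage. The locus was chosen with earlier results of these data known, so these shares do not tell how unusual it is. The overlapping anchors at the genes were counted separately. Counts of the other features were less far from the middle in most lists. More CTCF peaks than here were held by 30.2% to 46.2% of such windows over the 6 lists, the pro-metaphase count of 6 being the median, and more Rad21 peaks by 10.1% to 48.1%. More boundaries were held by 7.34% to 43.7%, with the late-G1 count of 11 at the median, and more loops by 7.03% to 26.3% from ana/telophase to late G1.

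From the anchor chr2:18590001-18620000 a stripe ran beyond Bmi1 to chr2:18790001-18990000, with a strength of 3.61 in early G1 and 4.28 in mid G1, and in late G1 to chr2:18790001-19010000 with 3.13. It ranked 125 of 878 horizontal stripes in early G1, 55 of 876 in mid G1 and 252 of 873 in late G1. Its body covered the far anchor of the ana/telophase loop. The strength is summed over the whole body, so it gives no value for the contact of that loop itself in G1. Of the ana/telophase loops on all chromosomes, 5 (0.551%) were found at no later stage and lay on an early-G1 stripe, 7 (0.771%) on a mid-G1 stripe and 7 (0.771%) on a late-G1 stripe. These shares are over all 908 loops. Loops lying on such a stripe were not counted apart from the later match, so the shares do not tell whether the pairing is uncommon.

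The second gene stripe, from chr2:18590001-18600000, ran upstream over chr2:17960001-18290000 in early G1 (2.90) and late G1 (2.70), and over chr2:17960001-18270000 in mid G1 (3.01). It ranked 428 of 875, 417 of 878 and 533 of 872 vertical stripes in early, mid and late G1, near the middle of its lists. The far anchor of the 610-kb loop, chr2:17970001-17990000, lay inside its body.

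Neither gene stripe anchor held a CTCF or Rad21 peak of any list. On all chromosomes 13.6%, 11.5% and 10.7% of early-, mid- and late-G1 stripe anchors lacked CTCF in every list, and 25.1% in ana/telophase. In the window 2 of 6 did in early G1 and in mid G1 (33.3%, 4.33 to 77.7), and 3 of 6 in late G1 (50.0%, 11.8 to 88.2). In late G1 the genome-wide value lay below the interval, but at each G1 stage 2 of the anchors were the overlapping ones at the genes. The other stripes of the window were anchored near 17940001, 18290001, 18790001 and 19190001. Their anchors held CTCF peaks of the stage, with 1 exception, the late-G1 anchor chr2:18760001-18790000. The ana/telophase stripe, anchored at chr2:19190001-19200000 with body chr2:18810001-19010000 and a strength of 3.56, had both CTCF and Rad21 at its anchor, and a stripe with an overlapping anchor was listed at each later stage.

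**Figure D4:**
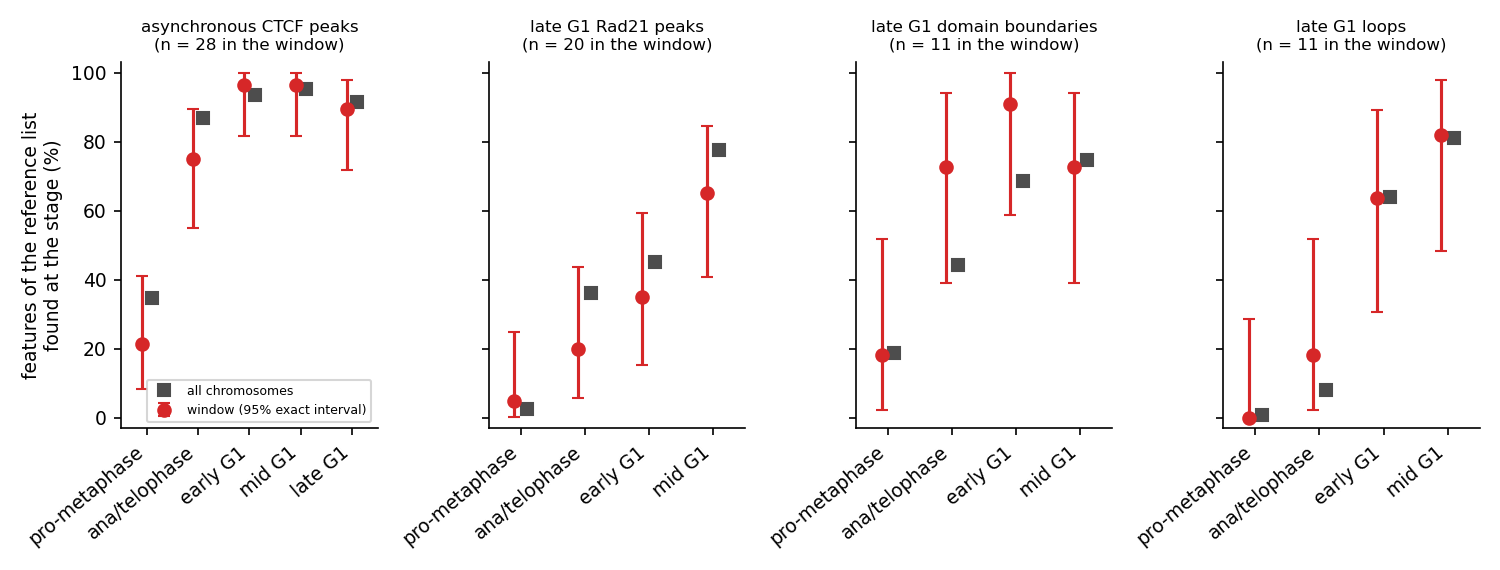
Share in percent of the window's asynchronous CTCF peaks, late-G1 Rad21 peaks, late-G1 boundaries and late-G1 loops found at each stage (red circles, exact 95% intervals), with the share on all chromosomes (grey squares). Each grey square lies within the interval of its red circle, and the loop shares run from 0% in pro-metaphase to 81.8% in mid G1.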

How the data were processed

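The locus was chosen, and its rule, lists and matching distances were set, with earlier results of these data known. CTCF and Rad21 ChIP-seq and in situ Hi-C had been made by the authors on sorted G1E-ER4 cells. Per the submitters' processing notes, the build was mm9, ChIP-seq used MACS2 2.1.0 beside Bowtie 0.12.7, bedtools 2.27.1 and SAMtools 1.7, and Hi-C used HiC-Pro with Bowtie2. The caller of the Hi-C features was not given in the sources used here.

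Peak names given by the authors say that replicates were merged and downsampled. Deposited were 12 lists of peaks, 5 of domains, 5 of loops and 10 of stripes. Each peak has a deposited fold enrichment (a ratio), −log10 q and score. Loop and stripe lists hold the authors' observed and expected contact signal, and loops also a deposited p-value and stripes a deposited strength ratio. Their normalization was also not given in the sources used here, and depth per sample is unknown. No p-value was computed, since each stage has 1 list.

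Overlaps were computed with Python 3.11.15, NumPy 2.4.6 and pandas 2.3.3, intervals with SciPy 1.17.1 and plots with Matplotlib 3.10.9. Overlap code was tested on simulated intervals against bedtools 2.31.1, where 8 of 8 tests passed. Peaks matched if they shared 1 bp, boundaries if within 20 kb, and loops if the gap between both pairs of anchors was at most 20 kb. An anchor counted as holding a protein when it overlapped a peak. Features named were all pro-metaphase peaks, the peaks nearest to and within 100 kb of the genes, the 5 strongest asynchronous CTCF and late-G1 Rad21 peaks, domains and boundaries at the genes, loops anchored there or with the highest ratio or length, and all stripes. Other features named, such as the late-G1 Rad21 peaks without CTCF, were chosen after their values were seen. The promoters of both genes matched RefSeq's table by symbol, and motifs were counted by exact letters. No mm9 sequence or annotation was used, so the direction of CTCF motifs was not analysed here.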

Additional observations from a re-analysis of the deposited data

How the results depend on the processing

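Of 157 alternatives computed for 54 results, 123 left the value within its interval or a count within 1.5 times, and 34 did not. Taking only features between 18100000 and 19100000, a shorter stretch by construction, gave 0, 11, 15, 16, 13 and 15 CTCF peaks and 0, 0, 3, 11, 11 and 3 Rad21 peaks, from pro-metaphase to late G1 and then asynchronous cells. There, pro-metaphase had 0% of the 15 asynchronous CTCF peaks (34.6% on all chromosomes) and early G1 100% (93.5% on all chromosomes). Of the 11 late-G1 Rad21 peaks there, 0% were found in pro-metaphase and 0% in ana/telophase, against 2.47% and 36.3% on all chromosomes.

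The single pro-metaphase Rad21 peak was lost (0 peaks) at a minimum of 5 for −log10 q or for fold enrichment, and 0% of late-G1 Rad21 peaks were then found in pro-metaphase at that q. An overlap of 50% of both peaks also gave 0%, and put 0% of the pro-metaphase Rad21 peak on CTCF. Domains in no larger one numbered 4, 2, 4 and 3 from ana/telophase to late G1, and 6 late-G1 domains lay wholly inside the window. The 3 late-G1 boundaries of such outer domains were found in 0% of cases in pro-metaphase and 100% at the 3 other stages. Keeping loops whose p-value was up to 0.1 times the largest deposited one left 1 ana/telophase loop, the one at the genes, and 0% of late-G1 loops found then.

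Some alternatives were chosen after seeing the data. Within 40 kb, 1 later stage held the ana/telophase loop of the genes, and within 10 kb none did. Boundaries of outer domains stood at the genes at 1 stage. The gene anchor held 0 CTCF and 0 Rad21 sites also when widened by 10 kb or 40 kb on each side.

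No paired analysis was possible because every list is pooled over the replicates of a stage, and leaving out a replicate could not be run for the same reason. Unknown depth limits every comparison between stages, and with at most 33 features per share, and 1 to 9 in several, only large differences from other chromosomes could show.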
